A study of Mus musculus with 622 samples.

Results

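The cytosolic ribosomal protein genes encode the proteins of the ribosome that translates messenger RNA in the cytoplasm. They were taken from a single-cell RNA table of 622 mouse pancreatic islet cells as protein-coding genes whose symbol is Rpl or Rps with a number and an optional a, x, l or p, plus Rplp0, Rplp1, Rplp2 and Rpsa. Pseudogenes and the S6 kinases were left out. Of 44448 genes in the table, 81 met the rule, 50 of the large and 31 of the small ribosomal subunit. Rps4l and Rpl6l fit by symbol but are listed by RefSeq as pseudogenes and were not members.

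All cells were islet cells of C57BL/6 mice labelled wild type, with no treatment in the labels, and age, sex and the number of animals were not given in the sources used here. Single cells were captured on the Fluidigm C1, a microfluidic chip that lyses each cell and amplifies its cDNA in its own chamber, with the SMARTer kit, and libraries were made with Nextera XT. Cells with at least 1000 genes at 1 RPKM (a read count corrected for the length of the gene and the depth of the cell) or more were kept, which left 593. A cell was put in a hormone group when 90% or more of its summed RPKM of Ins1, Ins2, Gcg, Sst and Ppy came from insulin (Ins1 and Ins2), glucagon, somatostatin or pancreatic polypeptide. This gave 395 insulin, 33 glucagon, 13 somatostatin and 11 pancreatic polypeptide cells, the hormones of beta, alpha, delta and PP cells. The other 141 cells were mixed, most often with insulin first and glucagon second (49 cells). No doublet was removed, so a mixed cell can be 1 cell or more than 1. The labels name no animal or chip, so all cells count as 1 sample. The values below describe these cells and carry no p-value.

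Mapped reads per kept cell, recovered from the table itself, ran from 135830 to 6111828 with a median of 1099984. The columns of 359 cells are written at full precision and those of 263 are rounded to 4 decimals, and the labels do not mention this. The median depth was 811202 reads in the first set and 1607351 in the second. Both sets hold every hormone group. The 9 beta cell markers were all seen in insulin cells, with a median summed level of 423829 RPKM against 1444 in glucagon cells, and the 7 alpha cell markers had 285367 RPKM in glucagon cells against 483 in insulin cells. Delta cell markers (4 of 5 listed genes matched) had 126537 RPKM in somatostatin cells against 58.5 in insulin cells, and the 3 PP cell markers 425357 RPKM in pancreatic polypeptide cells against 38.3. These lists hold the hormone genes that set the groups, so the sums follow from the grouping and are no separate check of it. Gcg alone had a median of 283909 RPKM in glucagon cells, and Sst alone 121989 RPKM in somatostatin cells. Somatostatin cells also held PP cell markers, at a median of 58321 RPKM, and beta cell markers, at 28759 RPKM. Their median Ppy was only 736 RPKM and their median Ins2 939 RPKM. The larger part of these 2 sums thus came from other genes of the lists, which include Pyy and Tspan8 for PP cells and Iapp for beta cells. Markers of a non-endocrine class (at least 3 of its genes at 10 RPKM or more) were found in 22 insulin cells, 12 of them with genes of the immune list (Ptprc, C1qa and others), and in 2 glucagon, 2 somatostatin, 4 pancreatic polypeptide and 9 mixed cells.

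The ribosome is built from a small subunit, which reads the messenger RNA, and a large subunit, which joins the amino acids. Nearly all ribosomal proteins occur once per ribosome, while the acidic proteins Rplp1 and Rplp2 form a stalk on Rplp0 that recruits elongation factors. Vertebrate ribosomal protein messenger RNAs start with a C and a run of pyrimidines, the 5′ terminal oligopyrimidine (TOP) tract, through which mTORC1 and LARP1 control their translation. Their sequences are copied many times in mammalian genomes as processed pseudogenes, so short reads from them can be hard to place. Secretory cells of the islet need ribosomes to make hormone, and insulin messenger RNA is among the most abundant messages of a beta cell.

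The start sites show the pyrimidine runs. RefSeq promoter windows (GRCm38.p6) were at hand for 61 of the 81 members, 73 windows in all, since a gene can have more than 1 listed start. A gene was counted when any of its windows held the run. Within 20 bases before to 50 bases after the annotated start, on the gene's strand, 48 members (78.7%) had a C followed by at least 7 C or T, against 22.7% of all 27025 genes with a window. A start placed exactly on a C with at least 4 further pyrimidines was found in 14 members (23.0%) and in 3.01% of all genes. The 8 windows below were taken from members of both subunits whose run begins within 5 bases of the annotated start. Capitals mark the run.
Rps18: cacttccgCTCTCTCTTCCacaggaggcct
Rps27: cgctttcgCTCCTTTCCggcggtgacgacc
Rps6: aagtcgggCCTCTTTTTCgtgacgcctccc
Rps10: cgcgcacgCCCCTTCCTTTCCagcctccgc
Rpl38: gcctcgttCTTTCCCCgttctcttcggttc
Rpl28: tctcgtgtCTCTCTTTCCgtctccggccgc
Rplp2: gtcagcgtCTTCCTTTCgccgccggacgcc
Rpl27a: ttcgtgagCTCCTCCCTTTTCCCTTTCTgc
On the minus strand lie the windows of Rps18 at chr17:33955646-33955675, Rps27 at chr3:90213629-90213658, Rps6 at chr4:86857347-86857376 and Rps10 at chr17:27635226-27635255. On the plus strand lie those of Rpl38 at chr11:114668572-114668601, Rpl28 at chr7:4792955-4792984, Rplp2 at chr7:141447639-141447668 and Rpl27a at chr7:109519183-109519212. Each window surrounds a start listed for its gene in the RefSeq promoter table. For Rpl38 this listed start, where its run begins, lies inside the gene's span of chr11:114667818-114672333 and not at its 5′ end. The run of Rpl27a, with 20 bases, is the longest of the 8. A match describes the letters of the window only. The 48 members with a run had a median level of 175 RPKM in insulin cells, and the 13 without one had 203 RPKM, and this difference was not tested.

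Ribosomal protein genes were among the more abundant messages of insulin cells, but their levels spread over a wide range. The mean over 395 insulin cells was at 100 RPKM or more for 54 of the 81 members, and the median member had 185 RPKM. Small subunit genes had a median of 203 RPKM and large subunit genes 159 RPKM. The plot of levels in insulin cells shows the 78 members at 1 RPKM or more on average, with names under some of them.

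**Figure D1:**
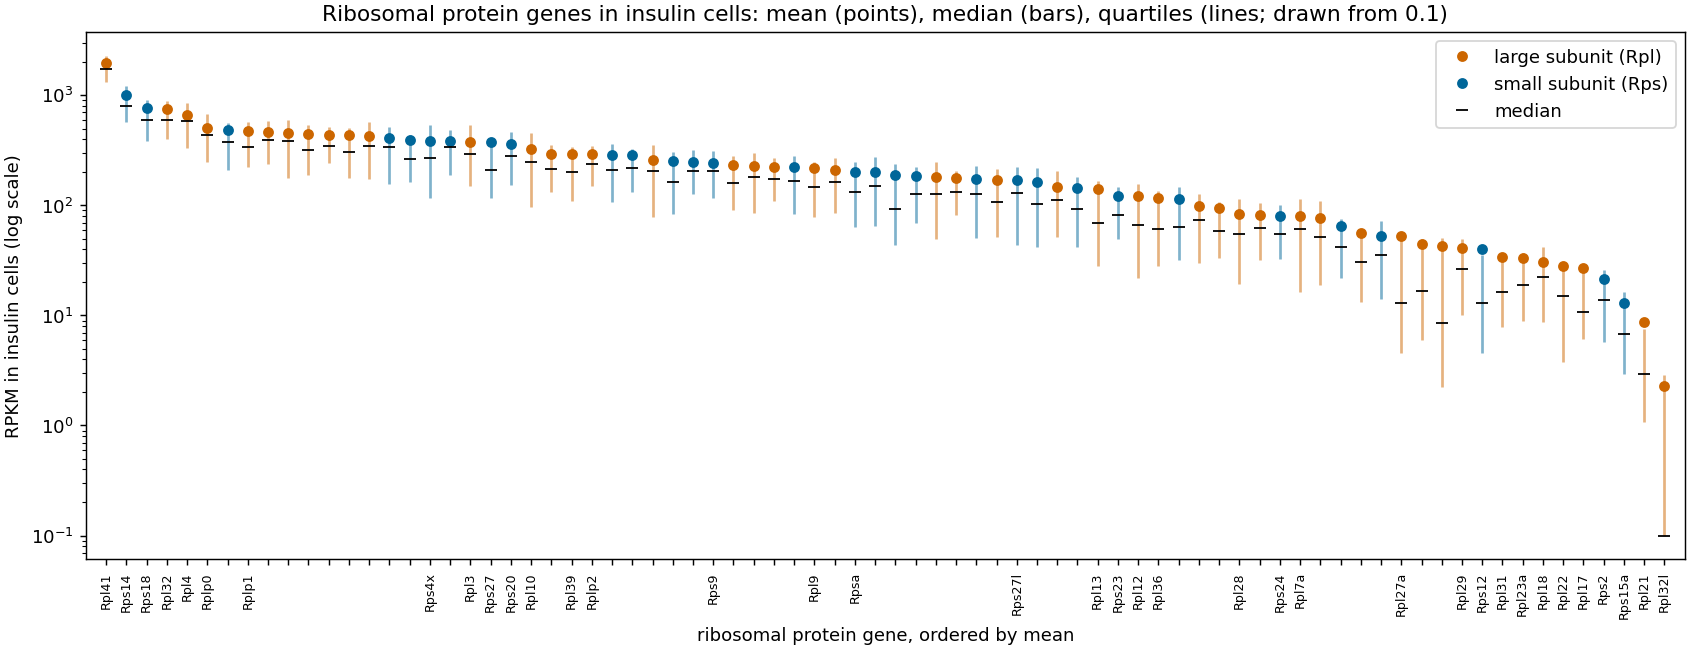
Mean (points), median (short bars) and quartiles (vertical lines, drawn no lower than 0.1) of RPKM over 395 insulin cells, on a log axis, for 78 ribosomal protein genes ordered by mean. Means fall from 1985 RPKM for Rpl41 to 2.30 RPKM for Rpl32l, and large and small subunit genes are mixed along the order.

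Rpl41, which encodes a very short, basic large subunit protein, was the highest. Its level in insulin cells ran from 3.73 to 8483 RPKM around a median of 1734, with a mean of 1985 ± 1110 (SD, n = 395). Rps14, a small subunit protein of the platform, followed with a mean of 1001 ± 757 RPKM. Rps18, a protein of the small subunit head, had 762 ± 699 RPKM, and the large subunit genes Rpl32 and Rpl4 had 755 ± 662 and 669 ± 472 RPKM. These SDs run across cells and not across animals. Each was below the next higher gene by less than the SD of that gene.

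The stalk genes did not have equal levels. Rplp0, the base of the stalk, had a mean of 509 ± 387 RPKM in insulin cells, Rplp1 had 474 ± 458 RPKM, and Rplp2 had 293 ± 291 RPKM. Rpsa, the small subunit protein also known as the laminin receptor, had 203 ± 232 RPKM. Rplp0 and Rplp1 were above Rpsa by more than the SD of Rpsa across cells but less than their own, and the other differences among these 4 genes were smaller than the SD of either gene.

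At the low end, 4 members were under 5 RPKM. Rpl10l and Rpl39l are known mainly from testis and Rpl3l from striated muscle. Rpl10l was listed at 0 in each of the 622 cells, and 0 of 395 insulin cells allows a share of up to 0.759% of cells with a read, which covers counting error only and sets no limit on cells that hold the RNA without giving a read. Rpl39l was at 1 RPKM or more in 1 of 395 insulin cells and Rpl3l in 1 insulin and 1 mixed cell. Their parent genes were far higher in insulin cells, with means of 324 RPKM for Rpl10, 295 RPKM for Rpl39 and 379 RPKM for Rpl3. The fourth, Rpl32l, reached 1 RPKM in 43.8% of insulin cells (exact Clopper-Pearson 95% interval 38.8 to 48.9%, which covers counting error only) at a mean of 2.30 RPKM. With every cell thinned to 250000 reads, a read of Rpl32l was left in 21.0% of 391 insulin cells. Rps27l, a close relative of Rps27 that is known as a p53 target, was by contrast well expressed, with a mean of 169 ± 201 RPKM beside 375 ± 596 RPKM for Rps27. The pseudogene Rps4l had a mean of 23.9 RPKM and a median of 3.10 RPKM in insulin cells, against a mean of 386 RPKM for Rps4x.

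Of the members above 5 RPKM, Rpl21 was the lowest, with a mean of 8.66 ± 18.4 RPKM, a median of 2.96 and a highest value of 154 in insulin cells. Rps15a had 12.9 ± 17.0 RPKM and Rps2 21.5 RPKM. Next came Rpl17, Rpl22, Rpl18, Rpl23a and Rpl31, from 26.8 to 34.3 RPKM. The gene length behind each value and the number of near-identical copies of the gene both moved with this order. Their part in it was not tested.

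The length in use was recovered for 77 members with a coding sequence at hand. It ran from 346 bases for Rps27 to 5136 for Rps15a, with a median of 759 bases, or 1.65 times the coding length. It was over 3 times the coding length in 10 members, among them Rps15a (13.2 times), Rps24 (8.60 times), Rpl22 (6.10 times), Rpl41 (5.99 times), Rpl18 (5.29 times), Rpl21 (5.01 times), Rpl31 (3.34 times) and Rpl15 (3.29 times). Rpl41 was the most abundant member all the same. Dividing by the coding length instead would move Rps24 from rank 59 to 12 and Rps15a from rank 76 to 55. Rpl21 stayed near the bottom, at rank 76 of 77. Across the 77 genes the level had a Spearman rho of -0.35 with the length in use, and the 2 orders of level had a rho of 0.89 with each other. These are descriptions across genes, which are not independent.

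Near-identical copies were counted from the GENCODE M21 mouse transcripts. A stretch of 50 coding bases was called shared when another annotated gene held it exactly. In the 80 members with a coding sequence, the median member had only 8.57% of its coding stretches to itself, and 60 members had less than 25%. Rps3, Rpl8 and Rpl4 had 91.9%, 91.3% and 79.7% of their stretches to themselves. At the other end, Rpl7a shared stretches with 123 other genes, Rpl29 with 84, Rpl21 with 82, Rps2 with 71 and Rpl17 with 51. Of the 82 that share with Rpl21, 81 are annotated as pseudogenes, and no coding stretch of Rpl21 was its own. Below is the coding stretch of 4 such members that the most other genes hold.
Rpl7a: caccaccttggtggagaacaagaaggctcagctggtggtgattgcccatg
Rpl21: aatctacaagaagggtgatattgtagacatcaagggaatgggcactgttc
Rps2: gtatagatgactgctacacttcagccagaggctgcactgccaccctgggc
Rps12: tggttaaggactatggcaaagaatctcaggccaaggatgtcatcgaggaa
The genes lie on chromosomes 2, 5, 17 and 10 in this order. The stretch of Rpl7a begins at coding base 429 and is found in 45 other genes. That of Rpl21 begins at base 96 and is found in 44, that of Rps2 at base 653 in 33, and that of Rps12 at base 329 in 22. A 50-base read from such a stretch matches the transcripts of all these genes equally well, and how the authors placed such reads is not given in the sources used here.

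**Figure D2:**
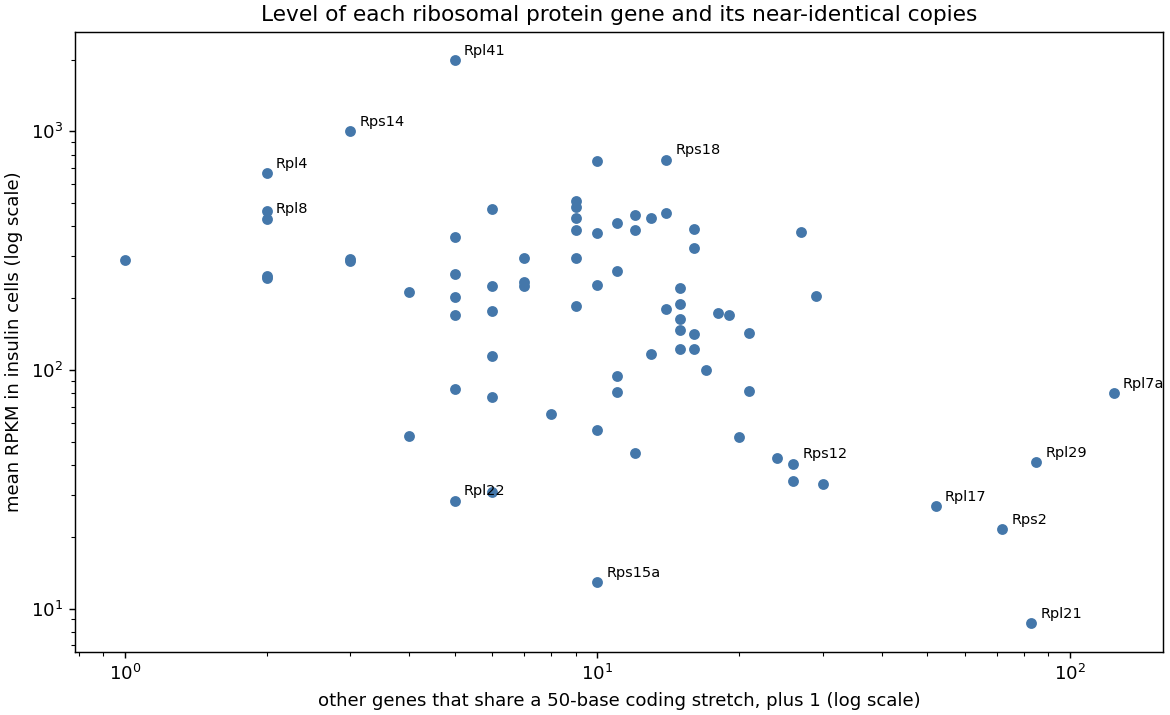
Mean RPKM in 395 insulin cells (log axis) against the number of other genes that hold a 50-base coding stretch of the member exactly, plus 1 (log axis), for 77 members. Rpl21, Rps2, Rpl17 and Rpl29, with 51 to 84 such genes, lie between 8.66 and 41.0 RPKM, while Rpl8, Rpl4 and Rps14, with 1 or 2, lie between 430 and 1001 RPKM.

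Members with fewer copies had higher levels on the whole. The level had a rho of 0.42 with the share of stretches a gene has to itself and of -0.42 with the number of genes that share one (n = 77 genes). The 60 members with less than 25% of their own stretches had a median level of 167 RPKM, and the 4 with 75% or more had 359 RPKM. Exceptions stood on both sides. Rpl41 had no stretch of its own and the highest level, Rps18 shared with 13 genes at 762 RPKM, and Rpl22 had 69.0% of its stretches to itself at 28.3 RPKM. Rpl7a shared with the most genes and had 80.0 RPKM. With stretches of 75 bases the values of rho were 0.42 and -0.46.

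Pseudogene rows took reads too. The table has 311 pseudogene rows named after a ribosomal protein gene, and their means in insulin cells added up to 3542 RPKM, beside 20033 RPKM for the 81 members, or 15.0% of both together. The highest were Rpl9-ps7 with 185 RPKM, Rpl9-ps6 with 180 RPKM and Rps13-ps1 with 150 RPKM. Rpl9 itself had 221 RPKM and Rps13 had 114 RPKM, so the copies of both were listed near the level of the parent gene or above it. In the 5 hormone groups the median share of a cell's RPKM in these rows was 0.359% in insulin, 0.627% in glucagon, 0.622% in somatostatin, 0.419% in pancreatic polypeptide and 0.474% in mixed cells.

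The order of the members was much the same in every hormone group. Between insulin cells and the others, rho across the 81 members was 0.96 for glucagon, 0.94 for somatostatin, 0.95 for pancreatic polypeptide and 0.99 for mixed cells. It was 0.97 between insulin cells of the full-precision and the rounded columns. The median number of members at 1 RPKM or more in a cell was 76 in insulin, 77 in glucagon, 75 in somatostatin, 76 in pancreatic polypeptide and 77 in mixed cells. After thinning to 250000 reads the members with a read were 75, 75, 72, 75 and 76. The median ratio of summed large to small subunit RPKM was 1.52 in insulin, 1.57 in glucagon, 1.39 in somatostatin, 1.37 in pancreatic polypeptide and 1.44 in mixed cells, and the ranges over cells overlapped.

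The share of a cell's RPKM in ribosomal protein genes was higher in glucagon cells than in insulin cells. It ran from 0.0249 to 11.0% over insulin cells with a median of 2.01%, and from 1.64 to 8.52% over glucagon cells with a median of 3.46%. Of the 33 glucagon cells, 30 were above the insulin median and 26 above the insulin upper quartile of 2.73%, and the groups overlapped. Somatostatin cells had a median of 3.24% (2.41 to 6.06%, all 13 above the insulin median). Pancreatic polypeptide cells had 1.92% (0.710 to 9.07%) and mixed cells 2.69% (0.692 to 9.99%).

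Hormone RNA filled a different part of each group, a median of 45.1% of RPKM in insulin, 43.3% in glucagon, 17.1% in somatostatin and 46.7% in pancreatic polypeptide cells. The share was therefore also taken from the RPKM outside Ins1, Ins2, Gcg, Sst, Ppy, Pyy, Iapp and the mitochondrially encoded genes. On this rescaled basis it was 6.28% in insulin cells (0.177 to 21.7%) and 8.47% in glucagon cells (4.59 to 18.1%), with 28 of 33 glucagon cells above the insulin median and 19 above its upper quartile of 8.04%. Somatostatin cells had 6.11% (4.13 to 12.9%), with 6 of 13 above the insulin median, and pancreatic polypeptide cells 6.04% (4.63 to 14.5%), with 5 of 11 above it. Mixed cells had 6.82% (3.08 to 16.9%). The difference between somatostatin and insulin cells seen in all RPKM was thus not seen in the medians outside hormone RNA, whereas that of glucagon cells was seen on both scales.

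**Figure D3:**
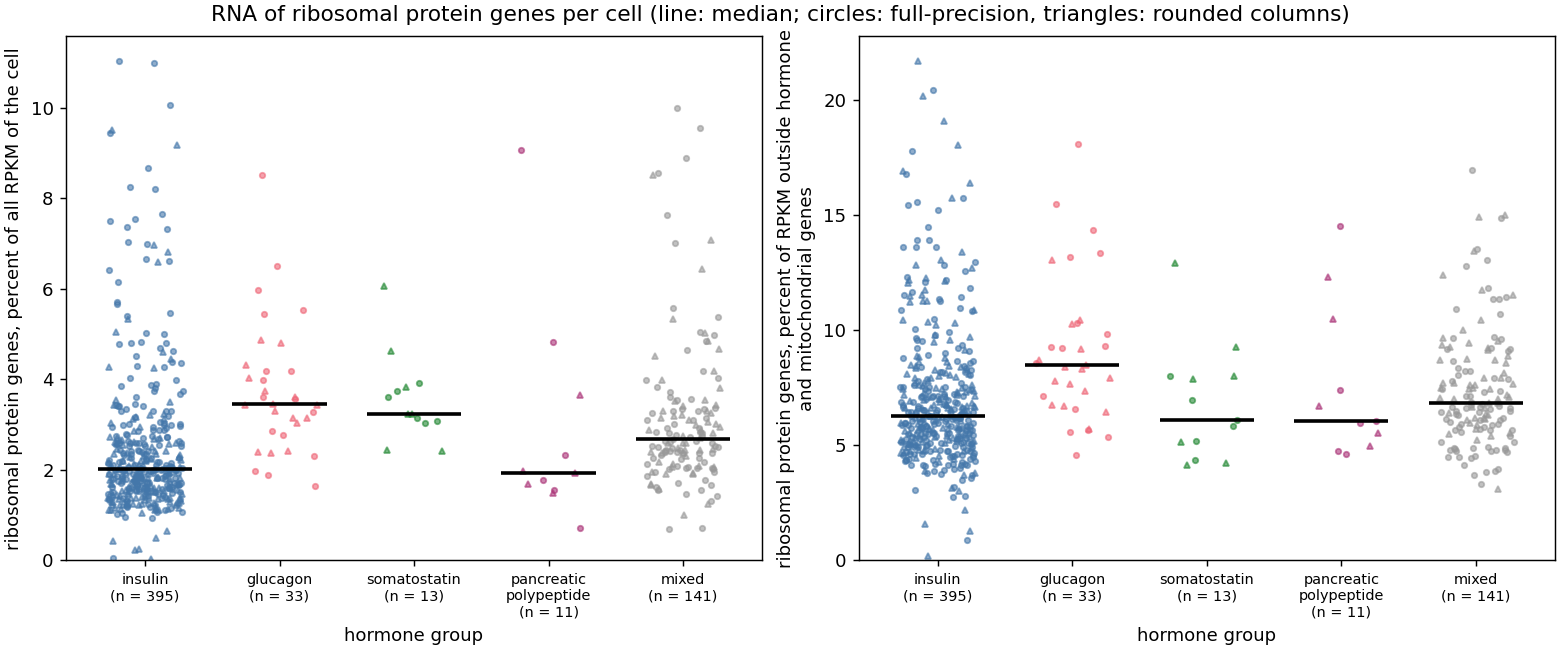
Share of each cell's RPKM in the 81 ribosomal protein genes, of all RPKM (left) and of RPKM outside hormone and mitochondrial genes (right), by hormone group. Lines are medians, circles are cells of full-precision columns and triangles of rounded columns; glucagon cells have the highest median on both scales (3.46% and 8.47%), and all groups overlap.

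The higher share of glucagon cells was seen in both sets of columns. The rescaled median was 9.25% in 17 glucagon and 5.99% in 226 insulin cells of the full-precision columns, and 8.13% in 16 glucagon and 6.72% in 169 insulin cells of the rounded ones. Somatostatin cells had 5.97% (n = 6) and 7.86% (n = 7), on either side of the insulin cells of their set. In the 373 insulin and 31 glucagon cells without a non-endocrine marker set the medians were 6.26% and 8.57%, so the difference was as large without those cells. The 22 insulin cells with such markers had 7.99%. An RPKM share cannot tell more ribosomal protein RNA in a cell from less of the other RNA.

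Single members were compared as log2((group mean + 1)/(insulin mean + 1)) of RPKM, over the 77 members whose mean reached 5 RPKM in one or both groups. In glucagon cells the median member was 0.47 higher, while the median of all 7527 genes that passed the same filter was -0.14. Of the 77 members, 68 were above 0. The shift was broad and shallow: 2 members were 2-fold or more higher and 0 were 2-fold or more lower, where the background over all genes was 11.7% higher and 21.1% lower. That background was not matched to the members in level. With a pseudocount of 10 RPKM, 2.6% of members and 8.81% of all genes were past 2-fold. Large subunit members had a median of 0.50 and small subunit members 0.44. The median member was at 0.56 in full-precision and 0.34 in rounded columns, with 9 members 2-fold higher and 0 lower in the first set (13.2% and 28.4% of all genes) and 6 higher and 1 lower in the second (20.6% and 26.7%). Outside hormone and mitochondrial RNA the median member was 0.46 higher and the median of all genes -0.23, with 2 members 2-fold higher and 0 lower beside a background of 13.4% and 26.9%.

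**Figure D4:**
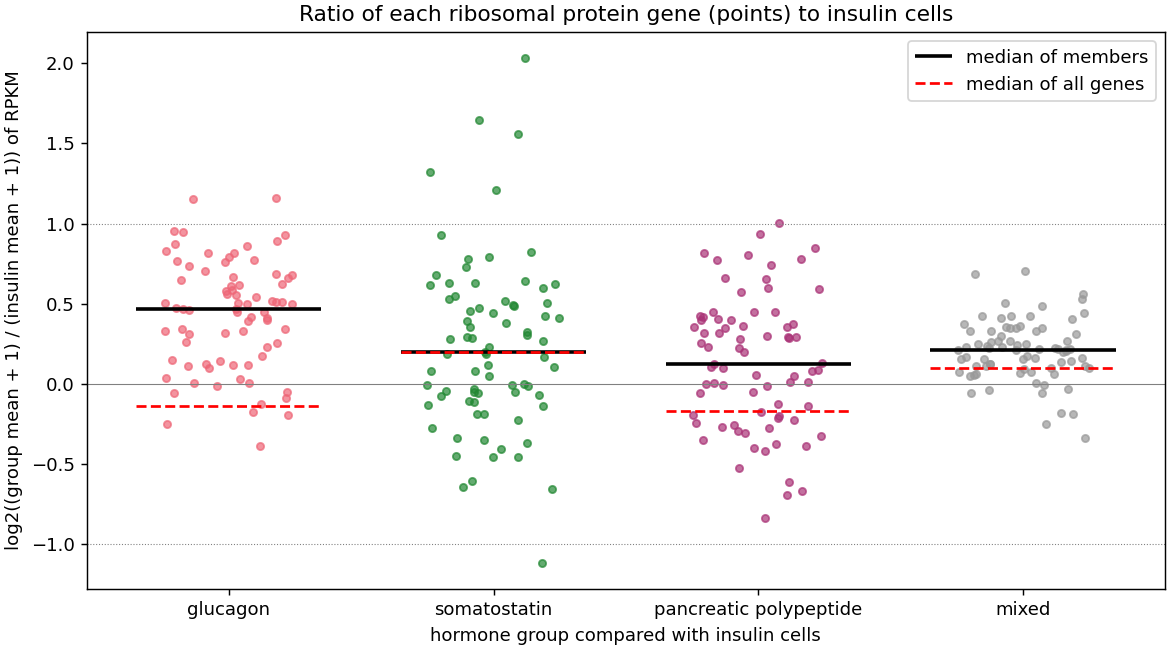
Each point is 1 of 77 ribosomal protein genes, placed by its log2 ratio of mean RPKM plus 1 to insulin cells, in 4 hormone groups. Black lines are the medians of the members and red dashed lines those of all genes; in glucagon cells the members' median is 0.47 and that of all genes -0.14, while in somatostatin cells both are 0.20.

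Rps24, a small subunit protein that is mutated in some patients with Diamond-Blackfan anaemia, had the largest ratio in glucagon cells. Its level ran from 14.5 to 647 RPKM over 33 glucagon cells with a median of 104, and from 0 to 823 over insulin cells with a median of 55.4. The groups overlapped, with 28 of 33 glucagon cells above the insulin median. The mean was 182 ± 165 RPKM against 80.9 ± 81.8 RPKM, a log2 ratio of 1.16, and it was 1.28 in full-precision and 1.02 in rounded columns. Rpl9, a large subunit gene, ran from 44.4 to 1846 RPKM with a median of 285 in glucagon cells and 149 in insulin cells. Its log2 ratio was 1.15, and 23 of 33 glucagon cells were above the insulin median. Rps15a had a median of 18.4 RPKM in glucagon and 6.85 RPKM in insulin cells and a log2 ratio of 0.96. A single glucagon cell, number 512, held 194 RPKM of Rps15a, and without it the ratio was 0.64.

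No member was far below insulin cells. Rpl10, an X-linked gene whose protein lies near the peptidyl transferase centre, had a mean of 247 ± 205 RPKM against 324 ± 308 RPKM and a log2 ratio of -0.39. Only 11 of 33 glucagon cells were above its insulin median. The ratio of Rpl10 was -0.64 in full-precision columns. In rounded columns it was -0.08, with medians of 198 RPKM in glucagon and 189 RPKM in insulin cells. Rps4x, also X-linked, had a log2 ratio of -0.25, with medians of 246 RPKM in glucagon and 270 RPKM in insulin cells. Rpl41 and Rps14, the most abundant members, were close to even at 0.11 and 0.10, and Rpl4 was at -0.02. The stalk genes went apart, with 0.68 for Rplp1, 0.58 for Rplp2 and -0.12 for Rplp0. Of the 33 glucagon cells, 25 were above the insulin median of Rplp1 and 28 above that of Rplp2, but 14 above that of Rplp0. In full-precision columns the mean of Rplp0 was 609 RPKM in glucagon and 561 RPKM in insulin cells. In rounded columns it was 316 RPKM and 440 RPKM, so Rplp0 was lower in glucagon cells in that set only. Rpsa had 0.76 and Rps18 0.61, with 22 of 33 glucagon cells above the insulin median of Rpsa. The paralog Rps27l was at 0.03 and Rps27 at 0.12.

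In somatostatin cells the median member and the median gene were alike in RPKM. The members' median log2 ratio was 0.20, and that of all 7890 genes was 0.20. Of the 77 members, 5 were 2-fold or more higher and 1 was lower, beside a background of 26.4% higher and 21.9% lower. Outside hormone and mitochondrial RNA the median member was at -0.07 and that of all genes at -0.45, with 36 of 78 members above 0. On that scale 3 members were 2-fold higher and 3 lower, beside a background of 17.4% and 38.1%. Among cells numbered 1 to 96 in their titles the median member was at -0.61, with 5 somatostatin cells, and among later numbers it was at 0.27.

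Several of these ratios rested on 1 of the 13 cells. Rpl27a, a large subunit gene, ran from 0 to 2652 RPKM with a median of 9.04. Cell 441 held 2652 RPKM and the next cell 78.4 RPKM. Its log2 ratio was 2.04 with that cell and -1.74 without it. Rps20 had 7836 RPKM in cell 437 and 1234 RPKM in the next cell, and its ratio went from 1.32 to -0.13 without cell 437. Rpl28 had 1708 RPKM in cell 426 and 218 RPKM in the next, and went from 1.21 to -0.29. Rps20 and Rpl28 are named here because they passed 2-fold, a choice made after their values were seen. Rpl23a was at 1.65, and at 0.98 without cell 426. Rps15a was at 1.56, at 1.16 without cell 441, and had a median of 20.9 RPKM against 6.85 RPKM in insulin cells.

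Lower in somatostatin cells was Rpl21, with a mean of 3.43 ± 5.07 RPKM, a median of 1.20 and a log2 ratio of -1.12. It was at 1 RPKM or more in 8 of 13 cells. Its ratio was -0.42 in full-precision and -1.83 in rounded columns. Rpl9, which was among the highest in glucagon cells, had a mean of 140 ± 62.3 RPKM and a log2 ratio of -0.66. Its median of 149 RPKM was the same as in insulin cells, and the highest somatostatin cell held 267 RPKM where the highest insulin cell held 2873 RPKM. Rplp1 had 303 ± 234 RPKM and -0.64, with a median of 204 RPKM against 343 RPKM in insulin cells. The ratio of Rplp1 was -0.15 in full-precision columns, with medians of 413 RPKM in somatostatin and 368 RPKM in insulin cells. In rounded columns it was -1.28, with medians of 152 RPKM and 304 RPKM.

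In pancreatic polypeptide cells the median member was 0.12 higher than in insulin cells and the median of all 7703 genes was -0.17. Only Rps4x was 2-fold higher and no member was 2-fold lower, beside a background of 20.2% higher and 28% lower. Outside hormone and mitochondrial RNA 3 members were 2-fold higher and 0 lower, beside 17.4% and 39.3% of all genes. Rps4x ran from 0 to 2682 RPKM over the 11 cells with a median of 410, and its log2 ratio of 1.00 was 0.59 without cell 439. Without the cells that hold non-endocrine markers, 4 of this group, the ratio of Rps4x was -0.15 and the median member was at -0.25. Rps7 was at 0.93 and, without cell 439, at 0.40. Rps20 was at 0.85, with a median of 549 RPKM against 282 RPKM. On the lower side were Rpl17 at -0.84, Rpl10 at -0.70 and Rpl36a at -0.67. The median of Rpl17, 14.6 RPKM, was above that of insulin cells, 10.7 RPKM, so its mean and its median differ in direction. The log2 ratio of the medians of Rpl36a was -0.013, so its typical cell was close to even. Its ratio of means was -0.35 in full-precision and -1.19 in rounded columns. The mean of Rpl10 was lower in glucagon and pancreatic polypeptide cells, and both comparisons share the insulin cells.

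In mixed cells the order of the members was nearest to that of insulin cells (rho 0.99), and 0 members were past 2-fold, but the median member was not nearer to insulin cells than in somatostatin or pancreatic polypeptide cells. The median member was 0.21 higher, that of all 7452 genes 0.10 higher, and 0 of 77 members were past 2-fold, beside a background of 5.86% higher and 1.77% lower. Outside hormone and mitochondrial RNA 0 members were past 2-fold, beside 7.37% of all genes higher and 4.96% lower. Rpl11, which with Rpl5 and 5S ribosomal RNA restrains the p53 ligase Mdm2, had the highest ratio at 0.71, followed by Rpl23a at 0.68 and Rps27a, a fusion of ubiquitin and a ribosomal protein, at 0.56. The lowest were Rpl27a at -0.34, Rpl22 at -0.25 and Rps6, the protein phosphorylated by the S6 kinases, at -0.19. The median of Rps6 was nonetheless higher in mixed cells, 112 RPKM against 93.3 RPKM.

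Within insulin cells the members differed in how evenly they were spread. Among members with a mean of 100 RPKM or more, the coefficient of variation was lowest for Rpl41 (0.56), Rpl4 (0.71), Rps14 (0.76), Rplp0 (0.76) and Rps9 (0.78). It was highest for Rpl36 (1.77), Rps27 (1.59), Rpl39 (1.53), Rpl12 (1.41) and Rpl13 (1.40). Rps27 ran from 0 to 7356 RPKM with quartiles of 116 and 380, and Rpl41 had quartiles of 1319 and 2273. The 5 most even members include the 2 with the highest means.

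Members went up and down together from cell to cell. For each member, Pearson's r was taken between its log2(RPKM + 1) and the mean of the other members over the 395 insulin cells. The median r was 0.57, from 0.32 to 0.77, while 442 other genes at 100 RPKM or more had a median of 0.33 with the members' mean. For the 54 members at 100 RPKM or more the median was 0.59. The highest were Rps14 (0.77), Rps18 (0.74), Rps23 (0.71), Rpl41 (0.70) and Rpl32 (0.70), and the lowest Rpl21 (0.32), Rpl15 (0.34), Rpl27 (0.34), Rps27l (0.34) and Rps29 (0.37). These cells share depth and the space taken by hormone RNA, and the part of these in r was not tested. On the rescaled basis the medians were 0.51 for members and 0.29 for other genes. In full-precision columns they were 0.61 and 0.19, and in rounded columns 0.51 and 0.35.

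The 10 genes most like the members over insulin cells were picked by Spearman's rho with their mean log2 level, among non-members at 100 RPKM or more. They were Eef1a1 (rho 0.60), the elongation factor that brings aminoacyl-tRNA to the ribosome, Ftl1 (0.57), the ferritin light chain, Rps3a1 (0.57) and Fau (0.56), ribosomal proteins whose symbols fall outside the rule, Rpl9-ps6 (0.56), Rpl9-ps7 (0.52), Cd63 (0.51), Mif (0.50), Rack1 (0.49), a protein of the small subunit, and the pseudogene Gm14303 (0.48). The share of RPKM in members had a rho of -0.49 with the hormone share and of 0.42 with the number of genes at 1 RPKM or more over the 395 cells. On the rescaled basis these were 0.02 and -0.03.

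The level also moved with the number in the title of a cell. Titles number the cells from 1 to 622, and the labels tie no chip or date to these numbers. In windows of 96 numbers, a size chosen after the data were seen, the 57 insulin cells numbered 1 to 96 had a median rescaled share of 9.52%, and those of the next windows had 5.40%, 5.49%, 5.95%, 6.94%, 6.28% and 7.44%. Glucagon cells had 13.7% (n = 6), 9.57% (n = 6), 5.96% (n = 2), 5.61% (n = 4), 7.61% (n = 2), 8.39% (n = 9) and 8.13% (n = 4) in the same windows. They were above insulin cells in 6 of the 7 windows and below them in numbers 289 to 384, where the share of all RPKM was 1.93% against 2.20%. Mixed cells had 9.17% in numbers 1 to 96 (n = 25) and 6.61% above (n = 116), while somatostatin cells had 6.11% (n = 5) and 6.84% (n = 8). In numbers 385 to 480 the upper quartile of insulin cells, 11.2%, stood above that of the other later windows, which were at most 8.62%. Depth differed too, with a median of 649669 reads in insulin cells numbered 1 to 96 against 900192 in the next window, and a median mitochondrial share of 14.2% against 11.0%. The part of these in the higher share was not tested.

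**Figure D5:**
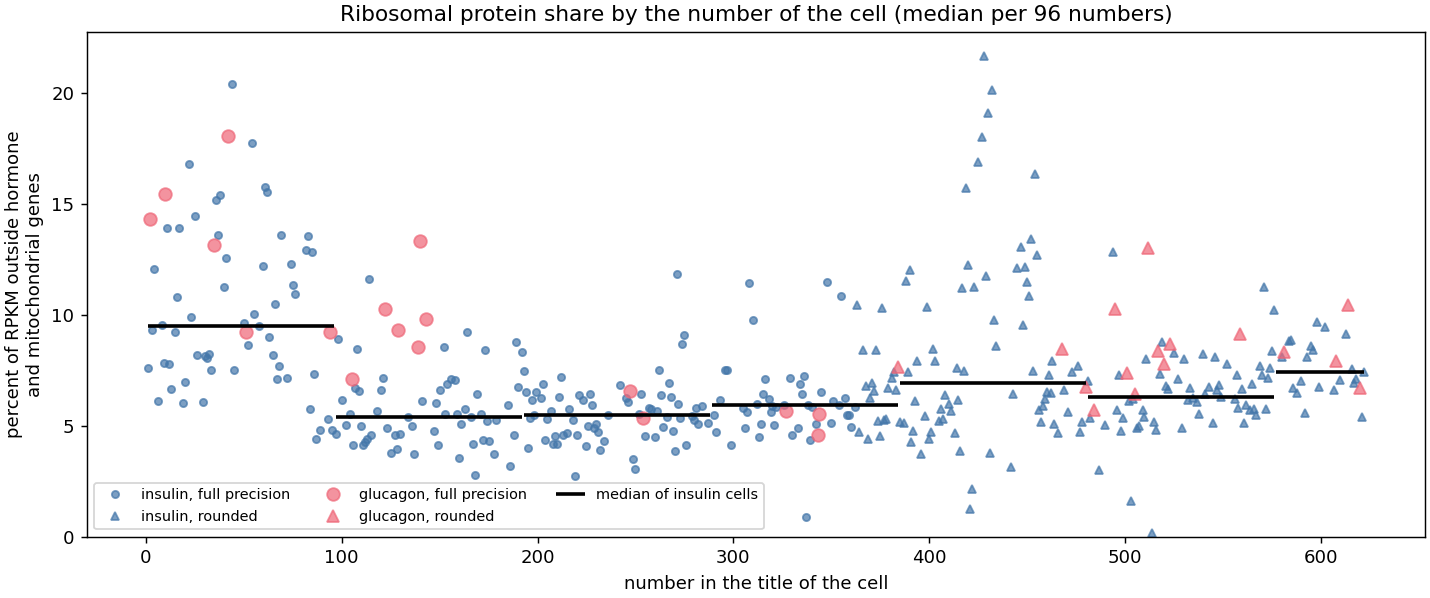
Share of RPKM outside hormone and mitochondrial genes in the 81 members (percent) against the number in the title of each insulin (blue) and glucagon cell (red); circles are full-precision and triangles rounded columns. Black lines are medians of insulin cells per 96 numbers, 9.52% in the first and 5.40 to 7.44% in the others, and 4 of the 6 glucagon cells of the first window lie above its insulin median.

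The single members were also compared across this split. It was made after their summed share was seen to be higher in numbers 1 to 96, so ratios above 0 largely follow from it. Among full-precision columns, 57 insulin cells numbered 1 to 96 were set against 169 with later numbers. The median member was 0.92 higher on the log2 scale, the median of all 7616 genes was 0.04, and all 77 members were above 0. Of these, 33 were 2-fold or more higher and 0 were lower, beside a background of 7.17% higher and 8.3% lower. These counts are no separate support for the difference. Rps27 led at 1.74, with means of 743 and 222 RPKM and medians of 405 and 169 RPKM. Rpl12 followed at 1.40, Rplp1 at 1.32, Rps15 at 1.31 and Rpsa at 1.30. Rpl7a at 0.11, Rpl21 at 0.23 and Rps27l at 0.31 were least different. Between glucagon and insulin cells the median member was 0.40 higher within numbers 1 to 96 and 0.41 higher without them. On the rescaled basis the share of all 5 somatostatin cells numbered 1 to 96 lay under the insulin median of the same numbers, 9.52%. In all RPKM the share of all 5 lay above that median, 2.97%.

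Cells that failed the filter held few genes of any kind by its rule, with a median of 417 at 1 RPKM or more. Members count among those genes, so their low number follows from the filter and is no result about them. In these 29 cells the median share was 0.0238% of RPKM and 0.306% on the rescaled basis, and the median number of members at 1 RPKM or more was 12. Their median depth was 1785448 reads, of which a median of 89.7% of RPKM fell on mitochondrial genes.

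Other genes of translation did not all go with the ribosomal proteins in glucagon cells. Of 7 measured ribosomal protein genes outside the symbol rule, 5 were above 0, with Rps3a1 at 0.54 (means of 778 and 535 RPKM) and Rack1 at 0.37. Of the 7, 0 were 2-fold higher and 1 lower, beside 11.7% and 21.1% of all genes. The lower one, Rpl7l1, had means of 3.84 and 27.7 RPKM. It passed the filter only through insulin cells, so no ratio of it is given. Rpl36al, a near copy of Rpl36a, was at -0.12, with means of 354 and 385 RPKM. Of 6 elongation factors, 3 were above 0. Eef1b2 was at 0.74 and Eef1g at 0.32, both of the exchange factor complex, while Eef1a1 was at -0.27 and Eef2, which moves the ribosome along, at -0.23. In full-precision and rounded columns Eef1b2 was at 0.87 and 0.60, and Eef1g at 0.63 and -0.13. In the same sets Eef1a1 was at -0.04 and -0.63, and Eef2 at -0.04 and -0.50. The median of the 15 other genes known for a TOP tract was 0.10, that of 37 initiation factors -0.33 and that of all genes -0.14. Among initiation factors Eif1b was at 0.93 and Eif3l, a subunit of the scaffold factor eIF3, at -1.30, with means of 18.5 and 47.0 RPKM. The medians of Eif3l were closer, 8.56 RPKM in glucagon and 10.0 RPKM in insulin cells. Of the 37 initiation factors, 0 were 2-fold higher and 3 lower, beside the 11.7% and 21.1% of all genes in this comparison.

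Genes that build ribosomes were not shifted upward as a list. Of 30 listed biogenesis genes, 24 passed the filter in the glucagon comparison, with a median of -0.17 near the -0.14 of all genes. Of these, 1 was 2-fold higher and 4 lower, again beside 11.7% and 21.1%. A low gene such as Myc or Nob1 passes the filter only through the group where it is high, so no ratio of these is given. The proteins of the mitochondrial ribosome, a separate set of 77 measured genes, had a median of -0.10 with 3 past 2-fold higher and 10 lower, shares that are under the same 11.7% and 21.1%. Among them Mrps7 was at 1.34, with means of 38.5 and 14.6 RPKM, and Mrps34 at -1.61, with means of 6.13 and 20.8 RPKM. The median of Mrps7 was 0 in both groups, and that of Mrps34 was 0 in glucagon and 0.918 RPKM in insulin cells. These ratios of means thus do not describe the typical cell. Of 12 listed regulators of ribosomal protein synthesis, 7 passed the filter, with a median of -0.39 and 2 above 0. Of the 7, 0 were 2-fold higher and 1 lower, beside 11.7% and 21.1%. Rheb, the activator of mTORC1, was at -0.65, with means of 24.3 and 38.8 RPKM. It was at -1.14 in full-precision and -0.37 in rounded columns. Larp4 went the other way at 0.41, with means of 26.5 and 19.7 RPKM, but was at -0.57 and 1.33 in these sets.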

How the data were processed

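The deposited table holds RPKM values per gene and cell that the authors made. CASAVA 1.8.2, FastQC and the build GRCm38 (mm10) are named in the submitters' processing notes, while the sources used here do not name the aligner, the counter or the treatment of reads with several places. Of 44448 Entrez IDs, 39725 matched the RefSeq table (GRCm38.p6). Members and gene lists were chosen with earlier results of these data known. Mapped reads per cell and gene lengths were recovered from the steps between RPKM values, and all 21516 member values under 100 reads came out whole within 0.05 reads. The recovery was tested on simulated data. Ratios used a pseudocount of 1 RPKM. Named members were the 5 highest and 5 lowest levels, spreads and correlations, the 3 highest and 3 lowest ratios of a comparison or list, the 10 most similar genes, the paralogs, the stalk genes and Rpsa. Members past 2-fold were added after the values were seen. Cells are no replicates, so no test was run. Start windows came from RefSeq and coding stretches from GENCODE M21. Protein sequences were not used here, and some genes that the naming rule picked are not reported here. Depth limits low genes: 1 read is a large part of a level near 1 RPKM. Python 3.11.15, numpy 2.4.6, pandas 2.3.3, scipy 1.17.1 and matplotlib 3.10.9 were used.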

Additional observations from a re-analysis of the deposited data

How the results depend on the processing

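The median log2 ratio of members lay between 0.34 and 0.58 in glucagon cells over 14 settings, between -0.61 and 0.27 in somatostatin, between -0.25 and 0.24 in pancreatic polypeptide and between -0.07 and 0.37 in mixed cells, so only that of glucagon cells stayed on one side of 0. The lowest somatostatin value came from cells numbered 1 to 96 only. The median r lay between 0.48 and 0.61. Counts of members past 2-fold moved most, and the cause was not tested. All genes moved too: over 15 settings, the reported one included, the share of all genes past 2-fold ran from 8.81 to 53.7% for glucagon, 14 to 67.9% for somatostatin, 14.1 to 66.2% for pancreatic polypeptide and 1.65 to 26.6% for mixed cells. The share of members was under that of all genes in each of these settings and groups, so the counts below are no result about the members. For glucagon cells (2) the count was 9 with group medians, 9 in full-precision columns, 7 in rounded columns, 6 without non-endocrine markers and 11 in cells numbered 1 to 96. For somatostatin cells (6) it was 3 with group medians, 17 in rounded columns, 18 in cells numbered 1 to 96 and 20 without them. For pancreatic polypeptide cells (1) it was 0 with a pseudocount of 10 and with a hormone share of 80%, 9 with group medians, 2 in full-precision and 9 in rounded columns, 3 after rescaling, 5 without non-endocrine markers, and 4 with numbers 1 to 96 only and 4 without them. For mixed cells (0) it was 2 in rounded columns and 1 in numbers 1 to 96. The median share was higher by construction outside hormone and mitochondrial RNA, at 6.28% in insulin, 8.47% in glucagon, 6.11% in somatostatin, 6.04% in pancreatic polypeptide and 6.82% in mixed cells, and that of glucagon cells numbered 1 to 96 was 5.49% of all RPKM. In somatostatin cells Rpl27a changed sign with group medians (-0.47), in full-precision columns (-1.17), with at least 2000 genes (-1.77), in numbers 1 to 96 (-1.44) and without its highest cell (-1.74). Rps20 did so with group medians (-0.35), without non-endocrine markers (-0.026), in numbers 1 to 96 (-0.31) and without its highest cell (-0.13), and Rpl28 in full-precision columns (-0.26), in numbers 1 to 96 (-0.94) and without its highest cell (-0.29). In pancreatic polypeptide cells Rps4x did so without non-endocrine markers (-0.15) and in numbers 1 to 96 (-0.0095). The settings on title numbers and on the highest cell were chosen after the data were seen. Over all settings, 704 values of named members moved by no more than 1.5 times, 40 moved by more, and the 14 above changed the sign of a ratio that was past 2-fold. No paired analysis was possible because the labels give no group or replicate number that pairs cells.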
